A study of Mus musculus with 8 samples.

Results

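Collagens are triple helices of 3 chains, and each chain is encoded by its own gene. The genes described here were all those named in the gene lists of all 8 libraries whose symbol is Col, a number, a and a number, which gave 43 collagen chain genes of 21207 genes. They comprised 10 fibrillar chains, 9 network-forming chains, 9 FACIT chains (fibril-associated collagens with interrupted helices), 4 transmembrane chains, 6 type VI chains and 5 others. The study profiled single nuclei of gastrocnemius, a calf muscle, of wild-type C57BL/6 mice. Old mice were 20 months of age and Young mice 3 months, per the study's methods. Running mice were 11 months of age when a treadmill programme of 2 months began, and Sedentary mice were of the same age without training. Each of the 4 groups had 2 libraries. Replicate 1 was made with 10x Genomics droplets, and replicate 2 belonged to a second library set made with another droplet system. The number and sex of animals behind a library are not given in the sources used here, so p-values measure the spread between libraries, which may be technical.

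Fibrillar collagens I, III and V form the ropes of the connective tissue around muscle fibres, and type VI collagen makes beaded filaments close to the fibre surface. Collagen IV is the sheet of the basement membrane that wraps every fibre and capillary. Muscle fibres are long cells with many nuclei, and the nuclei under the nerve contact (neuromuscular junction) and at the tendon end (myotendinous junction) transcribe their own sets of genes, some of which are collagens. Most collagen of muscle is known to come from fibro-adipogenic progenitors (FAPs), the fibroblast-like cells between the fibres, and from tenocytes, the cells of tendon.

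Depth differed between the sets. The 10x libraries held between 23390969 and 44454427 unique molecular identifiers (UMIs, tags that count each captured RNA molecule a single time), and the second set between 4839878 and 9278034. Nuclei were clustered without the collagen genes and named from markers that include no collagen, so that the level of a collagen in a class is a description with no test. Names mean that nuclei were like that class by its markers. Old replicate 2 stood apart from the other libraries: 4182 of its 4772 retained nuclei fell in clusters that no marker list named, against 2478 of 4510 in Young replicate 2 and 166 to 2309 nuclei in the other libraries. It held 16 FAP-like and 18 junction-like nuclei of the neuromuscular kind, fewer than the 20 required. Fitted differences between Old and Young are therefore also given without it.

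Collagen transcripts made up a small share of the nuclear RNA. The 43 genes together took 0.163% of UMIs in Old and 0.216% in Young, with 0.153% in Running and 0.0858% in Sedentary of the 10x set. In the second set the shares were 0.194%, 0.0632%, 0.0634% and 0.0559% in the same order. Old replicate 2 was the only library of its set above 0.1%. Fibrillar chains took 27.5% to 52.5% of all collagen UMIs in the 10x libraries and 19.1% to 23.5% in the second set. Type III, VI and V chains were the most counted, with 26428 UMIs of Col3a1, 23155 of Col6a3 and 21179 of Col5a2 over the 8 libraries, down to 67 of Col9a2. Per kilobase of exon, the mean 10x level was 16.8 CPM (UMIs scaled to a total of 1000000) for Col3a1, 14.3 for Col4a1, 13.7 for Col5a2, 12.2 for Col6a3 and 11.3 for Col15a1. The order depended on the length chosen. Per kilobase of the whole gene the level was 4.32 CPM for Col3a1, 3.44 for Col1a1 and 2.92 for Col1a2, against 0.933 for Col4a1.

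FAP-like nuclei held most of these transcripts. They were 19.2% of the 10x nuclei and held 66.1% of the collagen UMIs of those libraries, ranging from 26.3% to 73.5% by library. Type IIb-like myonuclei, of the fast glycolytic fibres that dominate the gastrocnemius, were 42.6% of nuclei and held 8.68%. Tenocyte-like nuclei were 0.797% of nuclei and held 2.96%. Nuclei like those of the myotendinous junction were 0.722% and held 1.15%, and those like the neuromuscular junction were 1.21% and held 1.40%. In the second set FAP-like nuclei were only 1.80% of nuclei and held 3.39% of collagen UMIs, whereas unnamed nuclei were 40.4% and held 54.4%. FAP-like nuclei were 29.4% of the nuclei in Old and 18.8% in Young, with 19.6% in Running and 7.77% in Sedentary of the 10x set, and fewer cells of a type and less RNA per cell cannot be told apart in the sums over all nuclei.

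**Figure D1:**
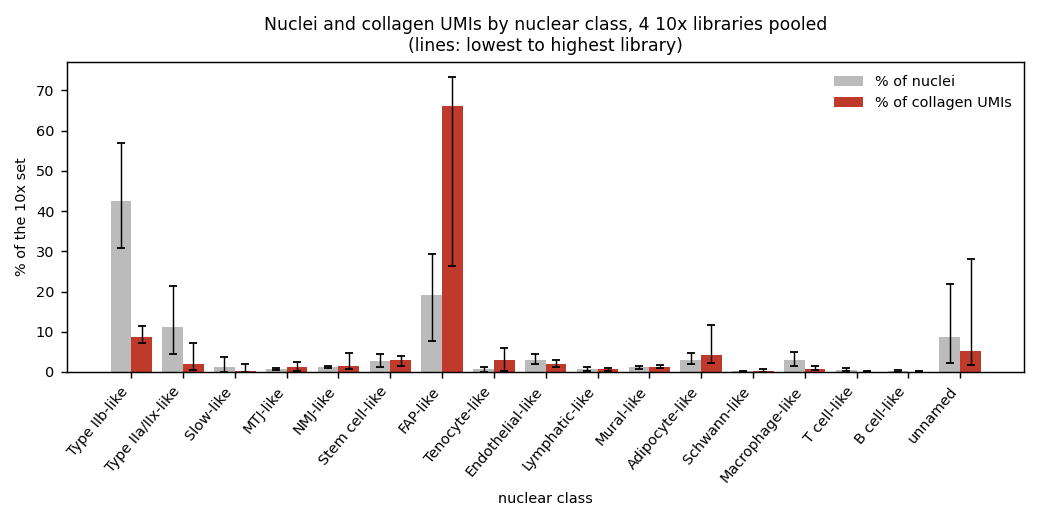
Share of retained nuclei (grey bars) and share of collagen UMIs (red bars) by nuclear class, in percent of the 4 10x libraries pooled, with lines from the lowest to the highest library. FAP-like nuclei are 19.2% of the nuclei and hold 66.1% of the collagen UMIs, while type IIb-like nuclei are 42.6% and hold 8.68%.

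Within FAP-like nuclei the 10x libraries also differed. Collagens were 0.523% of the UMIs of these nuclei in Old and 0.913% in Young, with 0.747% in Running and 0.429% in Sedentary. The same order was found in each of the 3 clusters that made up the class, with 0.675%, 1.07%, 1.02% and 0.625% in the cluster richest in Col15a1. The FAP-like nuclei of the second set gave 0.155% in Young, 0.131% in Running and 0.201% in Sedentary, and they were few, between 81 and 120. Their FAP markers summed to 3337 to 4269 CPM, while markers of type IIb fibres in the same nuclei summed to 19270 to 24390 CPM. The part of these fibre transcripts in the values of the second set was not tested.

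Fibrillar chains were led by Col3a1, Col5a2 and Col1a2. Col3a1 encodes the chain of type III collagen, the homotrimer of pliable tissue. Its level in 10x FAP-like nuclei was 515 CPM in Old (exact Poisson 95% interval 499 to 530), 1634 in Young (1604 to 1665), 1004 in Running and 325 in Sedentary. Young stood highest and Sedentary lowest, and type IIb-like nuclei, which are not a known source of type III collagen, held 3.87 to 15.4 CPM. Intervals cover counting error only, and with 1 library of each kind there is no replicate check. FAP-like nuclei held 83.7% of all Col3a1 UMIs of the 10x set. Col5a2 (a type V chain that nucleates fibrils) was at 529, 876, 865 and 406 CPM in FAP-like nuclei of Old, Young, Running and Sedentary of the 10x set. Col1a1 and Col1a2 encode the chains of type I collagen, the main collagen of tendon and of the sheaths of muscle.

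Tenocyte-like nuclei carried the highest type I levels. Col1a1 was at 448 CPM (349 to 567) in Old, 2179 (2040 to 2325) in Young and 741 (628 to 869) in Running of the 10x set, where Sedentary had only 9 such nuclei. Col1a2 was at 565, 3801 and 1163 CPM in the same libraries. Young was above Old for both genes by more than the counting intervals, in 1 library each. Col11a1, a fibrillar chain of cartilage and tendon, and Col12a1, which coats type I fibrils, had the highest ratios to the other classes in tenocyte-like nuclei, with medians of 511 and 746 CPM over 3 libraries. In those nuclei they stood apart from all 15 other classes of the 10x set, whose median levels were 1.89 CPM for Col11a1 and 3.19 CPM for Col12a1.

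Network chains were spread over more classes. Col4a1 and Col4a2 encode the common chains of basement membrane collagen IV. Col4a1 was at 477 CPM in Old and 432 in Young, with 562 in Running and 483 in Sedentary FAP-like nuclei of the 10x set, a narrower range than that of the fibrillar chains. The median in mural-like nuclei, which are pericytes and smooth muscle, was 410 CPM for Col4a1 and 369 CPM for Col4a2. Col8a1, a short-chain network collagen of vessel walls, had similar 10x medians in endothelial-like (283 CPM) and tenocyte-like nuclei (275 CPM), with overlapping ranges. FAP-like nuclei, at a median of 192 CPM, held 67.2% of its 10x UMIs and endothelial-like nuclei 13.8%. In lymphatic endothelial-like nuclei Col4a5 and Col4a6 had medians of 110 and 79.6 CPM. Col4a5 had a similar median of 106 CPM in FAP-like nuclei, with overlapping ranges, and these held 62.4% of its 10x UMIs. Col4a6 is known from the basement membranes of smooth muscle and skin.

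The 6 collagen IV genes lie in head-to-head pairs, and the pairs shared more of their class pattern the closer their starts. Col4a1 and Col4a2 lie on opposite strands of chromosome 8 of GRCm38 with 20 bases between their starts, and they overlap there. Their levels correlated across 16 classes of the 10x set with a Pearson r of 0.96 on the log2(CPM + 1) scale. Col4a3 and Col4a4 do not overlap and have 71 bases between their starts on chromosome 1, with r of 0.70. Col4a5 and Col4a6 do not overlap either and have 1308 bases between their starts on the X chromosome, with r of 0.60. The classes share libraries and differ in depth, and with 3 pairs the order is a description. The windows around the starts of Col4a2 and Col4a4 are printed because each holds the start of its partner. They come from RefSeq on GRCm38.p6 and run 5′ to 3′ on the gene's own strand, from 250 bases before the start to 50 after it. Capitals mark a CCAAT box in Col4a2 (chr8:11312555-11312854, plus strand) and an E-box, CANNTG, in Col4a4 (chr1:82586800-82587099, minus strand).
Col4a2: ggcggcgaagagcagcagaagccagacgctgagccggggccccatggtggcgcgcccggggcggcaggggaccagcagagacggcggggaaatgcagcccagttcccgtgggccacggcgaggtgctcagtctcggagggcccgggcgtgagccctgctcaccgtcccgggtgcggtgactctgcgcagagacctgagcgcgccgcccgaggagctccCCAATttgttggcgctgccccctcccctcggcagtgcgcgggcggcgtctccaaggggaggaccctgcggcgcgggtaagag
Col4a4: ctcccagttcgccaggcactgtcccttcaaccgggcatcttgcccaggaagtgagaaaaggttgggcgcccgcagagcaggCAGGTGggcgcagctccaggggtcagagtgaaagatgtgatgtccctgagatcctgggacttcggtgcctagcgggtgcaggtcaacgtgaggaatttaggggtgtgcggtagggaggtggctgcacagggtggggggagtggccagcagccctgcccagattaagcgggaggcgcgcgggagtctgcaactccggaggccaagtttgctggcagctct
Windows were found for 35 of the 43 members. With both strands searched, CCAAT was present in 13 of the 35 (37.1%) and in 37.4% of 32851 mouse promoter windows, and CANNTG in 20 (57.1%) against 72.3%. GGAATG, the MCAT box of muscle genes, was present in 5 (14.3%) against 14.7%. CCGGAA, the N-box known from synaptic genes of muscle, was present in none of the 35 windows and in 14.9% of all windows. The shares of the collagens were near or below those of all promoters, and a match or its absence describes these letters in this window only.

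The most counted type VI chains also had their highest 10x medians in FAP-like nuclei, and of the FACIT chains only Col14a1 did so. By share of 10x UMIs, FAP-like nuclei held 79.0% of Col14a1, 52.8% of Col16a1 and 42.6% of Col12a1. The other FACIT chains had their highest 10x medians in other classes, such as Col12a1 in tenocyte-like nuclei and Col22a1 in those of the myotendinous junction. Col14a1, which binds fibril surfaces, was at 173, 297, 203 and 100 CPM in FAP-like nuclei of Old, Young, Running and Sedentary of the 10x set. Col6a3, the long chain of type VI collagen, was at 811, 1006, 817 and 604 CPM in the same order, and 85.0% of its 10x UMIs lay in FAP-like nuclei. Col6a6 encodes another long chain of type VI collagen, and FAP-like nuclei held 88.8% of its UMIs. Col6a6 and Col15a1 were high in one FAP-like cluster and Col14a1 in another: Col6a6 ranged from 149 to 563 CPM and Col15a1 from 509 to 894 CPM in the first, while Col14a1 ranged from 410 to 668 CPM in the other. Col15a1 encodes a proteoglycan-like collagen that ties the basement membrane to the fibrils beneath it. In all FAP-like nuclei it was at 288, 483, 458 and 339 CPM in Old, Young, Running and Sedentary of the 10x set. Adipocyte-like nuclei also led with Col15a1, at 132 CPM over the 10x set, and with Col12a1 at 18 CPM.

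Col6a1 and Col6a2, the short chains that pair with Col6a3, had FAP-like levels of 208, 344, 211 and 134 CPM and 206, 326, 209 and 139 CPM in Old, Young, Running and Sedentary of the 10x set. FAP-like nuclei held 79.7% of the UMIs of Col6a1 and 83.8% of those of Col6a2. All 3 chains were lowest in Sedentary. Col18a1, the source of the fragment endostatin, had 53.5% of its UMIs in FAP-like nuclei, at 38.4, 39.7, 37.7 and 31.2 CPM in the same order. At the low end 10 members had under 1000 UMIs over the 8 libraries, namely Col16a1, Col9a1, Col11a2, Col10a1, Col6a5, Col8a2, Col6a4, Col17a1, Col9a3 and Col9a2. Unnamed nuclei held 61.8% of the 10x UMIs of Col6a4 and 41.7% of those of Col6a5, and type IIb-like nuclei held 60.2% of those of Col11a2 and 60.2% of those of Col9a1. Of all genes, type IIb-like nuclei held 16981550 of 39089730 retained UMIs in Old and 24061882 of 39640849 in Young of the 10x set. In Running they held 23706005 of 44288625 and in Sedentary 8777465 of 23242685, with mitochondrial and ribosomal genes left out of the class sums. The 10x median of Col11a2 was 6.09 CPM in type IIb-like and 88.4 CPM in tenocyte-like nuclei. Macrophage-like nuclei had Col25a1 and Col6a6 as leading members, at only 9.29 and 8.71 CPM.

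Col19a1, a FACIT chain made early in muscle development, was high in another pair of classes. Muscle stem cell-like nuclei of the 10x set held it at 684 CPM (625 to 747) in Old and 1551 (1477 to 1626) in Young, with 935 (864 to 1010) in Running and 689 (571 to 823) in Sedentary. Young was highest, with 1 library each. The order of the classes differed by library: nuclei like those of the neuromuscular junction, described with the junction collagens, were above stem cell-like nuclei in Old and Sedentary and below them in Young and Running. Stem cell-like nuclei held 51.4% of the 10x UMIs of Col19a1, and junction-like nuclei of the neuromuscular kind held 20.6%. No nuclei of the second set were named as muscle stem cells. Col26a1, a little studied collagen, was the other member with the highest ratio in stem cell-like nuclei, at 75.7 CPM over the 10x set.

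Col7a1 and Col24a1 had the highest ratios to the other classes in type IIb-like and type IIa/IIx-like nuclei. The protein of Col7a1 is known as the anchoring fibril of skin. The 10x median of Col7a1 was 49.7 CPM in type IIb-like nuclei and 45.9 CPM in those like the neuromuscular junction, with overlapping ranges. In the second set its medians were 115 CPM in type IIb-like and 60.8 CPM in FAP-like nuclei. Type IIb-like nuclei held 68.3% of its 10x UMIs, and it was at 32.8 CPM in Old and 19.3 in Young, with 66.5 in Running and 75.2 in Sedentary there. In the second set it was at 129 CPM in Young, 131 in Running and 101 in Sedentary, with 2 UMIs in the 37 nuclei of Old. The order of Old and Young was not the same in the sets. Col24a1, a minor fibrillar chain, also had most of its 10x UMIs (62.2%) in type IIb-like nuclei, at 42.5, 99.8, 47.6 and 34.1 CPM in Old, Young, Running and Sedentary of the 10x set. This share and that of Col7a1 stand beside the large part of the UMIs of all genes in that class, given above. The summed collagen share in type IIb-like nuclei was 0.025% to 0.031% of UMIs in the 10x libraries.

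Schwann-like nuclei, the glia of nerve, reached the 20 required in 2 libraries only, with 37 in Old and 27 in Sedentary of the 10x set. Young had 7 and Running 10. Col24a1 was at 662 and 751 CPM there and Col20a1, a FACIT chain, at 389 and 235 CPM. Col23a1, a transmembrane chain, had similar 10x medians in lymphatic endothelial-like nuclei (364 CPM) and Schwann-like nuclei (329 CPM, libraries from 283 to 376). In the lymphatic class it was at 808 CPM (676 to 958) in Old, 257 (205 to 317) in Young and 364 (303 to 434) in Running of the 10x set. Col25a1, a transmembrane chain that motor axons need to reach muscle, was at 73.6 CPM in mural-like nuclei of the 10x set. Slow fibre-like nuclei had Col4a5 and Col23a1 as leading members, at 88.7 and 71.1 CPM. T cell-like nuclei had no member above 1.07 times the level of the other classes among those with at least 20 UMIs.

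**Figure D2:**
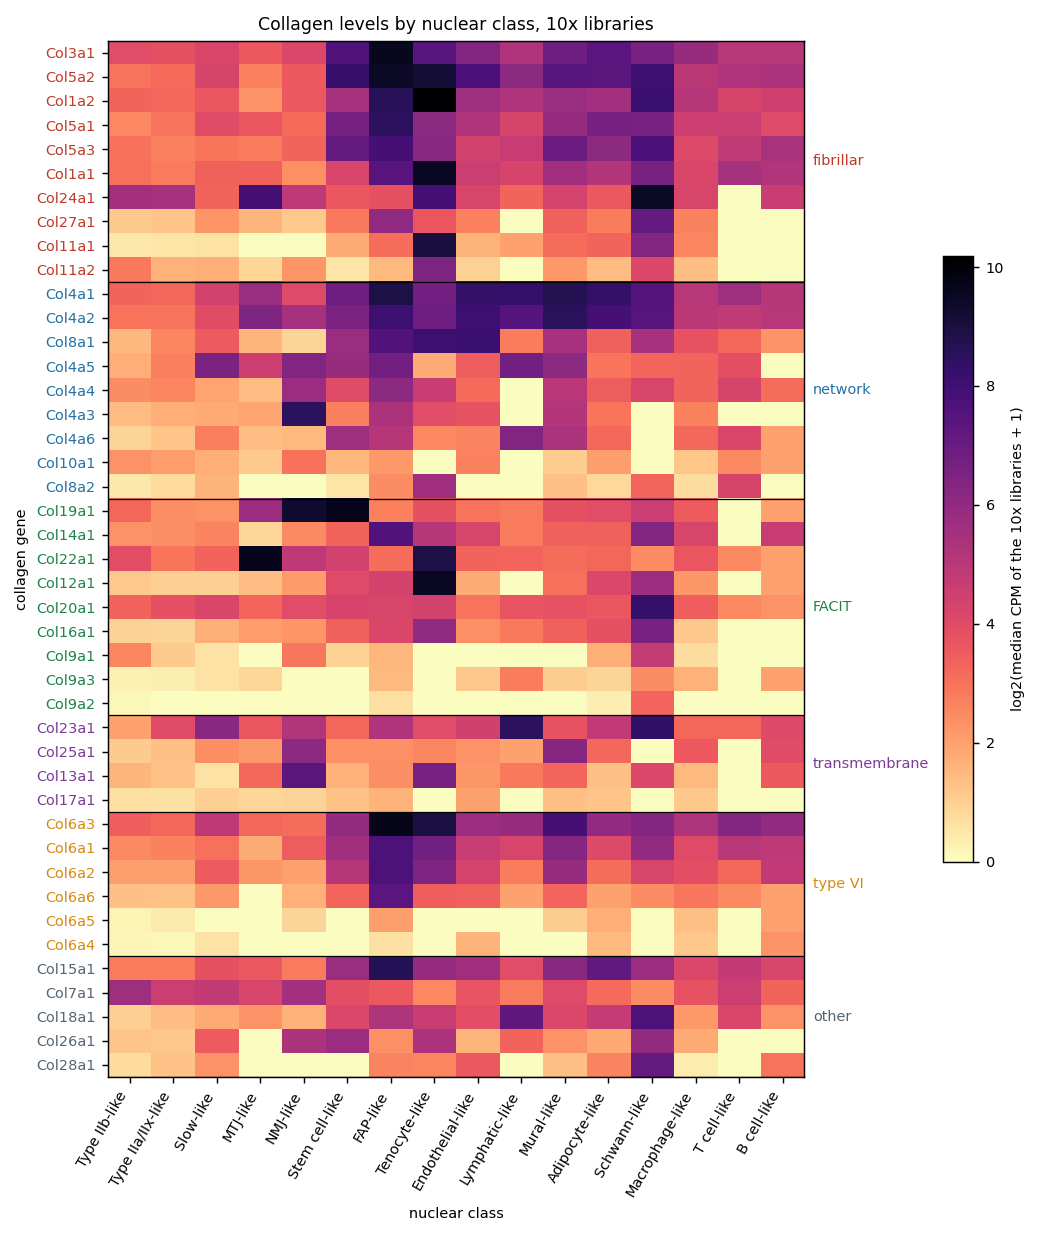
Level of each collagen chain gene in each nuclear class of the 10x set, as log2(median CPM of the libraries + 1), with genes grouped by collagen class. The most counted fibrillar and type VI chains are highest in FAP-like and tenocyte-like nuclei, Col22a1 in nuclei like those of the myotendinous junction, and Col4a3 and Col13a1 in nuclei like those of the neuromuscular junction.

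The myotendinous junction had 1 defining collagen. Col22a1 (chr15:71795795-72034227, minus strand), a FACIT chain known to sit at the tip of the fibre, was at 761 CPM in Old and 759 in Young, with 1604 in Running and 848 in Sedentary nuclei of this class in the 10x set. In the second set it was at 944, 744, 1093 and 1105 CPM in the same order. The lowest of these 8 levels was above the highest of the type IIb-like nuclei in the same set, which held 2.87 to 25.6 CPM in the 10x set and 15.6 to 81.1 CPM in the second set. The class held 24 to 163 nuclei a library. Tenocyte-like nuclei held Col22a1 as well, at 468, 604 and 49.1 CPM in Old, Young and Running of the 10x set. Col24a1 was the other leading chain of the myotendinous class, at 226, 182, 535 and 268 CPM in the 10x set and 664, 377, 543 and 518 CPM in the second set for Old, Young, Running and Sedentary. Over the 16 classes the gene most like Col22a1 was Gm16308, with r of 0.957, and the most like Col24a1 was Cyb5r2, with r of 0.917.

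The neuromuscular junction class held more of them. Col4a3 (chr1:82586921-82722059, plus strand) is best known from the filtration membrane of the kidney. It was at 293 CPM in Old and 299 in Young, with 417 in Running and 688 in Sedentary of the 10x set, and at 1273, 1267 and 1366 CPM in Young, Running and Sedentary of the second set. Type IIb-like nuclei of the 10x set held 0.883 to 1.9 CPM of it. Its partner Col4a4 was at 31 to 132 CPM in the same 10x nuclei and at 133, 199 and 208 CPM in the second set. FAP-like nuclei held both genes too, with Col4a3 at 31.4, 45.7, 104 and 21.3 CPM and Col4a4 at 54.3, 79.8, 152 and 55.0 CPM in Old, Young, Running and Sedentary of the 10x set. Col4a3 was thus higher in the junction class than in FAP-like nuclei in each 10x library, whereas Col4a4 was lower there in Old, Young and Running. The size of the junction class depended on the clustering, and not equally by library. At a lower clustering resolution Old of the 10x set had 39 such nuclei in place of 106, and Young 25 in place of 161. Running had 39 in place of 175 and Sedentary 71 in place of 127. The part of this in the differences between libraries was not tested.

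Col13a1, a transmembrane chain made by the fibre that matures the synapse, was at 155, 206, 117 and 167 CPM in junction-like nuclei of Old, Young, Running and Sedentary of the 10x set and at 327, 271 and 371 CPM in Young, Running and Sedentary of the second set. Its level in type IIb-like nuclei of the 10x set was 1.27 to 2.96 CPM. Col19a1 was at 751, 512, 407 and 1275 CPM and at 1576, 2391 and 2627 CPM in the same libraries. Both were above the type IIb-like level in all 7 libraries. Col19a1 (chr1:24587388-24587687, minus strand) and Col24a1 (chr3:145292222-145292521, plus strand) windows are printed as those of the junction collagens shared with another class, with E-boxes in capitals.
Col19a1: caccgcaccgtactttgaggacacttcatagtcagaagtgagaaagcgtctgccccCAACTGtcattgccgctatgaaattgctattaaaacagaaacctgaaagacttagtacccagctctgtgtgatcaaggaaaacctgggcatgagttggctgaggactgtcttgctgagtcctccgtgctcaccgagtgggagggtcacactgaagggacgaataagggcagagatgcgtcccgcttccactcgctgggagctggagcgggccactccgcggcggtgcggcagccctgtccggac
Col24a1: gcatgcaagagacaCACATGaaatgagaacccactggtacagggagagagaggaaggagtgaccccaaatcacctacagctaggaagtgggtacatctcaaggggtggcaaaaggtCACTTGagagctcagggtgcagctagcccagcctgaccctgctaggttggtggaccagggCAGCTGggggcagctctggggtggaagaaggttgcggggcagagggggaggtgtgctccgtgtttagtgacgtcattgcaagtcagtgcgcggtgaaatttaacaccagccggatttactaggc
By class pattern the gene most like Col4a3 was C430014B12Rik (r of 0.874), that most like Col4a4 was Oaf (0.864), that most like Col13a1 was Nkd2 (0.802) and that most like Col19a1 was Hs6st2 (0.857). These are descriptions over 16 classes and 17684 genes.

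**Figure D3:**
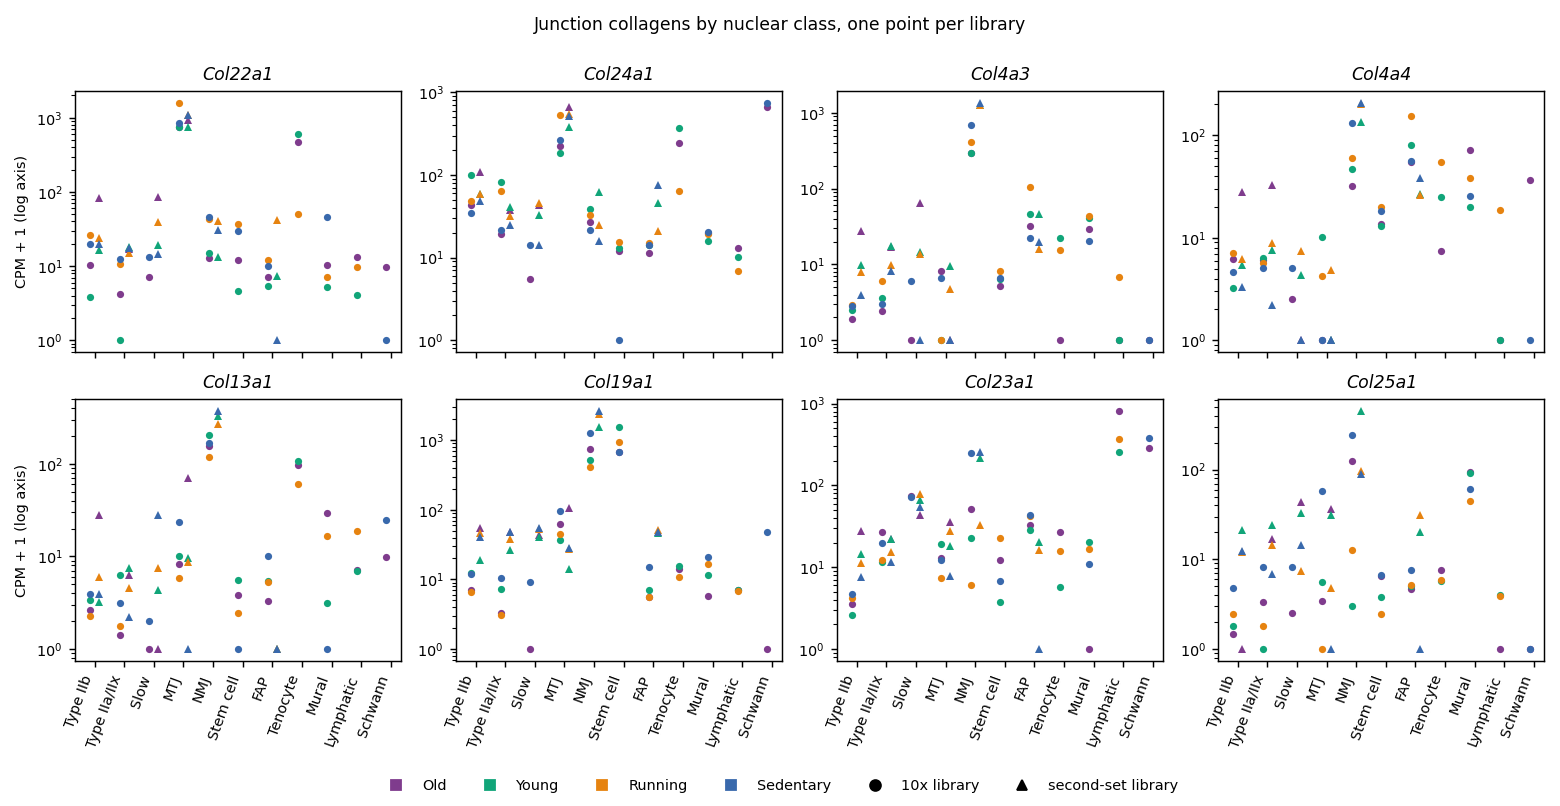
Level of the 8 junction collagens by library in the myonuclear, stem cell, FAP-like, tenocyte, mural, lymphatic and Schwann classes, as CPM + 1 on a log axis. Circles are 10x libraries, triangles are libraries of the second set, and colours give the groups. Col22a1 lies between 744 and 1604 CPM in all 8 libraries of the myotendinous class, and Col4a3 between 293 and 1366 CPM in 7 libraries of the neuromuscular class.

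Old and Young were compared over all nuclei with edgeR's quasi-likelihood test on UMI sums of the 8 libraries, with library set as a term and Benjamini-Hochberg adjustment over 20322 genes. All 43 members passed the filter on low counts. None of the 43 was called, and 0 of 20322 genes were, a background of 0.0%. No member had an unadjusted p under 0.05, against 557 of all genes, and DESeq2 called 0 genes with 1174 at an unadjusted p under 0.05. Fitted differences were above 0 for 31 of 43 members, with a median of 0.53 log2 units against 0.19 for all genes. With 1 library left out the members' median ranged from -0.34 to 1.20.

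The direction rested on few libraries. Within the 10x set 19 of 43 members were higher in Old and the median was -0.05, whereas within the second set 42 were higher and the median was 1.85, with Col7a1 the exception. Without Old replicate 2 the fitted median was -0.34 and 12 of 43 were above 0. Without Old replicate 1 it was 1.20 and 35 were above 0, with 21 members and 7985 of 20731 genes at an unadjusted p under 0.05 and 0 called. It was 0.87 without Young replicate 1, 0.25 without Young replicate 2 and 0.19 over nuclei of named clusters only, where 23 of 43 were above 0. Fibrillar chains were higher in Old for 1 of 10 genes in the 10x set and for 10 of 10 in the second set. Col1a1 was at 42.1 CPM in Old and 135 in Young in the 10x set and at 11.3 and 9.1 in the second set. Its fitted log2 difference was -1.16 (SE 0.663, adjusted p = 0.693 in edgeR), and it, Col4a6 and Col10a1 had the smallest p-values. Col4a6 was at 14.7 and 10 CPM in Old and Young of the 10x set and at 105 and 16.9 in the second set, with 1.49 (SE 0.762, adjusted p = 0.693 in edgeR). Col10a1, known from hypertrophic cartilage, was at 5.26 and 1.19 CPM and at 1.01 and 0.225 CPM, from 505 UMIs in all, with 1.82 (SE 0.965, adjusted p = 0.693 in edgeR). Old was above Young in each set, but in the second set from only 5 UMIs in Old and 2 in Young. Without Old replicate 2 the differences were -1.66 for Col1a1, -0.21 for Col4a6 and 1.57 for Col10a1, so that Col4a6 changed sign. The summed collagen share differed by 0.61 log2 units (exact permutation p = 1, two-sided), by -0.40 within the 10x set and by 1.62 within the second set. A test of 2 libraries against 2 cannot give a p below 0.3333.

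**Figure D4:**
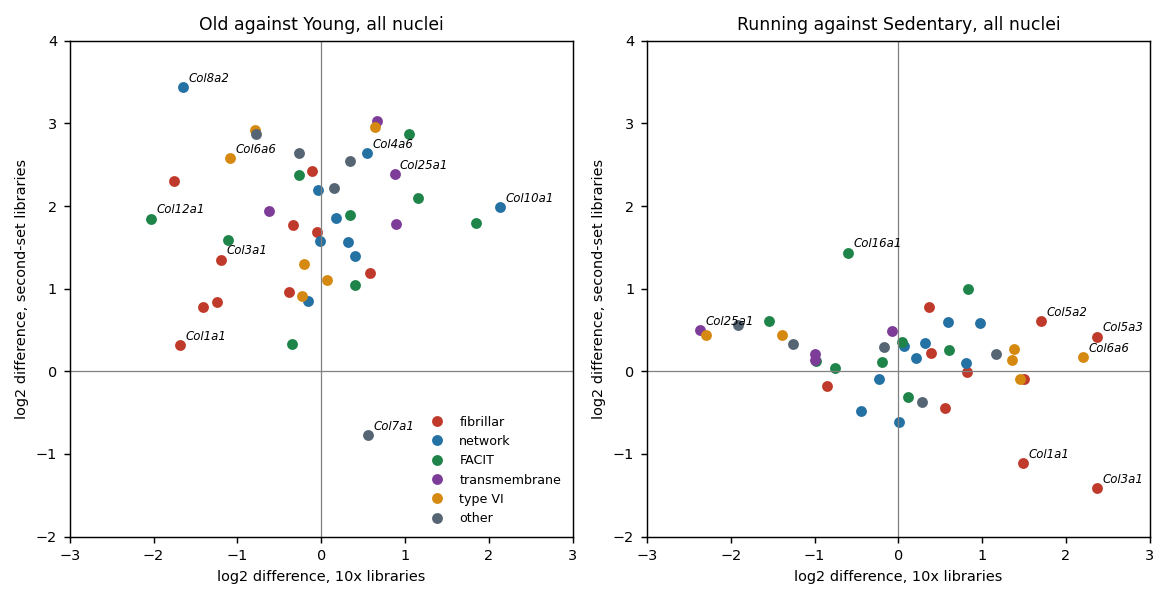
Difference in log2 CPM of each collagen chain gene between 1 library and 1 other, 10x set against second set, for Old against Young and Running against Sedentary over all nuclei. For Old against Young 42 of 43 genes lie above 0 in the second set and 19 of 43 in the 10x set.

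Running and Sedentary were compared in the same fit. None of the 43 members was called, and 0 of 20322 genes were (0.0%). Unadjusted p-values were under 0.05 for 2 members and 98 genes, and DESeq2 called 0 with 392 genes under that limit. Fitted differences were above 0 for 28 of 43 members, with a median of 0.18 against -0.04 for all genes. Col5a3, a further type V chain, was at 112 CPM in Running and 21.6 in Sedentary of the 10x set and at 9.53 and 7.08 in the second set. Its log2 difference was 1.42 (SE 0.552, adjusted p = 1 in edgeR). Col5a2 was at 147 and 45.3 CPM and at 15.1 and 9.86 CPM, with 1.21 (SE 0.515, adjusted p = 1 in edgeR). Both were higher in Running in both sets. Col6a6 came next, with 1.43 (SE 0.868, adjusted p = 1 in edgeR). Fibrillar chains were higher in Running for 9 of 10 genes in the 10x set (median 1.15) and for 4 of 10 in the second set (median -0.05). Transmembrane chains were higher for 0 of 4 in the 10x set and 4 of 4 in the second set. FAP-like nuclei, where the fibrillar chains lie, were 2550 of 12991 in Running and 823 of 10587 in Sedentary of the 10x set. The summed share differed by 0.51 log2 units (exact permutation p = 0.667, two-sided), by 0.84 within the 10x set and by 0.18 within the second set.

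Within FAP-like nuclei Running and Sedentary were compared over 7 libraries without Old replicate 2, which had too few of these nuclei. Of 43 members 36 passed the filter, and 1 was called, beside 21 of 13658 genes (0.154%). That gene was Col6a6 (chr9:105687809-105828160, minus strand). FAP-like nuclei of the 10x set held it at 295 CPM in Running and 70.6 in Sedentary, and those of the second set held it at 25.3 CPM from 5 UMIs and 18.6 CPM from 2 UMIs. Old and Young of the 10x set stood at 86.4 and 243 CPM and Young of the second set at 12.9 CPM. Running and Sedentary did not overlap within the 10x set, while their counting intervals overlapped in the second set. The log2 difference was 1.89 (SE 0.446, adjusted p = 0.0226 in edgeR). The Col6a6-high cluster made up 1056 of 2550 FAP-like nuclei in Running and 225 of 823 in Sedentary of the 10x set, and the cluster that held most of Sedentary's (468 of 823) had 971 in Running. Within the 3 clusters Col6a6 was at 563, 116 and 112 CPM in Running and at 151, 41 and 18.6 CPM in Sedentary. FAP markers summed to 15000 CPM in Running and 10690 in Sedentary of the 10x set, and to 3337 and 4269 CPM in the second set, and their part in the result was not tested. The call was lost without Running replicate 1, without Sedentary replicate 1, where the log2 difference was 0.26, without Old replicate 1 (adjusted p = 0.924) and without Running replicate 2 (adjusted p = 0.34). It was also lost without the set term and in DESeq2 (adjusted p = 1 in each) and at a clustering resolution of 0.5 (adjusted p = 0.083). The second set alone holds 7 UMIs of it in these 2 groups.

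The next members in FAP-like nuclei did not pass the adjusted test. Col5a3 was at 640 CPM in Running and 166 in Sedentary of the 10x set and at 81 and 74.6 CPM in the second set, with a log2 difference of 1.47 (adjusted p = 0.0687 in edgeR). Col8a1 was lower in Running, at 85.1 against 191 CPM and at 25.3 against 131 CPM, with -1.47 (adjusted p = 0.0771 in edgeR). Over the 36 members 27 were above 0 and 8 had an unadjusted p under 0.05, beside 394 of 13658 genes, with a median of 0.15 against 0.05 for all genes. Old and Young could be compared in the 10x set only. Col1a1 in FAP-like nuclei was at 137 CPM (129 to 145) in Old and 570 CPM (553 to 589) in Young, and this pair was not tested, because Old replicate 2 had too few of these nuclei.

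Within nuclei like those of the neuromuscular junction 2 of the 15 members that passed the filter were called for Running against Sedentary, beside 20 of 6804 genes (0.294%). Both were transmembrane chains and both were lower in Running. Col23a1 (chr11:51289920-51583918, plus strand) was at 5.06 CPM from 3 UMIs in Running and 250 from 72 UMIs in Sedentary of the 10x set. In the second set it was at 31.9 from 4 UMIs and 252 from 17 UMIs. Old stood at 50.1 CPM and Young at 21.8 and 218 CPM. Sedentary was above Running in both sets, and Young of the second set stood close to Sedentary. The log2 difference was -4.41 (SE 0.626, adjusted p = 1.12e-06 in edgeR, and adjusted p = 0.00945 in DESeq2). Without Sedentary replicate 1 it was -2.70 (adjusted p = 0.99), without Running replicate 1 -3.80 (0.0927), and without Old replicate 1 the adjusted p was 0.271. The call was lost without the set term (adjusted p = 1) and where collagens were kept in the clustering (0.0609).
Its window (chr11:51289670-51289969, plus strand) is printed with an E-box in capitals, as that of the member with the smallest p-value.
Col23a1: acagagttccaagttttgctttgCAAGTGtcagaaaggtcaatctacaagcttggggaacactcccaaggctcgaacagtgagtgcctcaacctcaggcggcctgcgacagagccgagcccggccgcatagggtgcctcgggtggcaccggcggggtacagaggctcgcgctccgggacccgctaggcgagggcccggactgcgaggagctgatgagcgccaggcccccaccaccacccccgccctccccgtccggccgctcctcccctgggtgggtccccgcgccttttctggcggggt

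Col25a1 (chr3:130131501-130599877, plus strand) was at 11.8 CPM in Running and 240 in Sedentary junction-like nuclei of the 10x set, but at 95.6 from 12 UMIs and 89.1 from 6 UMIs in the second set. Old stood at 124 CPM and Young at 1.98 and 449 CPM. Running was below Sedentary in the 10x set only. The log2 difference was -2.96 (SE 0.641, adjusted p = 0.00662 in edgeR), DESeq2 gave an adjusted p of 1, and without Sedentary replicate 1 the difference turned to 0.84. Among other settings, the call of Col25a1 was also lost without the set term, without Old replicate 1, at a resolution of 0.5 and where collagens were kept in the clustering. Markers of slow fibres summed to 42.2 CPM in these nuclei of Running and 1417 of Sedentary in the 10x set and to 494 and 520 CPM in the second set. In Old they summed to 389 CPM and in Young to 29.7 and 800 CPM. In the 10x set Sedentary and Old had the most slow fibre markers in junction-like nuclei and also the most Col23a1 and Col25a1, and their part in the result was not tested. Markers of Runx1 myonuclei summed to 736 and 1535 CPM in Running and Sedentary of the 10x set and to 1578 and 2316 CPM in the second set, so that they were lower in Running in both sets, as Col23a1 was, and their part was not tested either. The synaptic markers themselves summed to 3789 and 4752 CPM in Running and Sedentary of the 10x set and to 5251 and 6294 CPM in the second set. At a resolution of 0.5 the junction-like class of the 10x set had 39 nuclei in Running in place of 175. Sedentary had 71 in place of 127, and the part of this in the result was not tested. Slow fibre-like nuclei held Col23a1 at 70 to 72.6 CPM in the 10x set. Col19a1 was the next member, with -0.81 (adjusted p = 0.865 in edgeR).

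In the myotendinous class 0 of the 6 members that passed the filter were called in either comparison, with 0 of 4584 genes called (0.0%) and 142 genes at an unadjusted p under 0.05 for age and 153 for running. Col22a1 differed between Running and Sedentary by 0.51 log2 units (SE 0.375, adjusted p = 0.999 in edgeR). It was higher in Running in the 10x set and about equal in the second set. Col24a1 differed by 0.63 (SE 0.406) between Running and Sedentary and by 0.40 (SE 0.439) between Old and Young, and Col4a2 by 0.84 (SE 0.626) and 0.66 (SE 0.69), each with an adjusted p of 0.999 in edgeR. Col19a1 had the smallest p for Old against Young, with 1.18 (SE 0.763, adjusted p = 0.999). Without Old replicate 2 the Old against Young differences were 0.74 for Col19a1, 0.57 for Col4a2 and -0.01 for Col24a1, with 1 gene and 0 members called.

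In ordinary myonuclei no member was called. Type IIb-like nuclei had 124 of 15208 genes called for Old against Young (0.815%) and 35 between Running and Sedentary (0.23%), and 0 of the 38 members that passed the filter in either. At an unadjusted p under 0.05 there were 5 members and 1172 genes in the first comparison and 1 member and 546 genes in the other. Col4a1 was at 14.9 CPM in Old and 3.49 in Young type IIb-like nuclei of the 10x set, with 3 and 5 UMIs in the second set, and a log2 difference of 1.81 (SE 0.653, adjusted p = 0.222 in edgeR). Col24a1 was at 42.5 and 99.8 CPM in the 10x set and at 108 CPM from 4 UMIs and 57.9 CPM from 26 UMIs in the second set, where Old was the higher. Its difference was -1.02 (SE 0.459, adjusted p = 0.486), and Col6a3 had 1.17 (SE 0.585, adjusted p = 0.624). Old replicate 2 had 37 such nuclei. Without it 55 genes and 0 members were called, and the differences were 1.59 for Col4a1, -1.12 for Col24a1 and 1.32 for Col6a3. For Running against Sedentary the smallest p-values were those of Col5a3, with 1.11 (SE 0.547), Col5a2, with 1.05 (SE 0.544), and Col25a1, with -0.84 (SE 0.588), each at an adjusted p of 1. Col3a1 and Col5a3 in type IIb-like nuclei were lowest in Sedentary of the 10x set, as in its FAP-like nuclei, at 3.87 and 3.53 CPM. Transcripts that leaked from FAPs and those of the fibre itself cannot be told apart at these levels.

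Type IIa/IIx-like nuclei, of the fast oxidative fibres, had 0 of 32 members and 0 of 12661 genes called in either comparison (0.0%), with 600 and 261 genes at an unadjusted p under 0.05. Col24a1 was at 18.5 CPM in Old and 80.5 in Young of the 10x set and at 36.9 and 40.5 CPM in the second set, with -1.59 (SE 0.524, adjusted p = 0.971 in edgeR). Between Running and Sedentary it was at 63 and 20.6 CPM and at 30.9 and 23.7 CPM, with 1.10 (SE 0.459, adjusted p = 1). Col24a1 was higher in Running in both sets and lower in Old in the 10x set. In the second set Old and Young lay near each other, and Old had only 165 such nuclei with 189947 UMIs of all genes. Col6a3 and Col4a1 were the other members with small p-values for Old against Young, with 1.54 (SE 0.607) and 1.60 (SE 0.684), and Col19a1 and Col25a1 those for Running against Sedentary, with -1.24 (SE 0.591) and -1.60 (SE 1.13), all at an adjusted p of 1. Without Old replicate 2 the Old against Young differences were -2.12 for Col24a1, 1.68 for Col6a3 and 0.82 for Col4a1, with 2 genes and 0 members called.

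**Figure D5:**
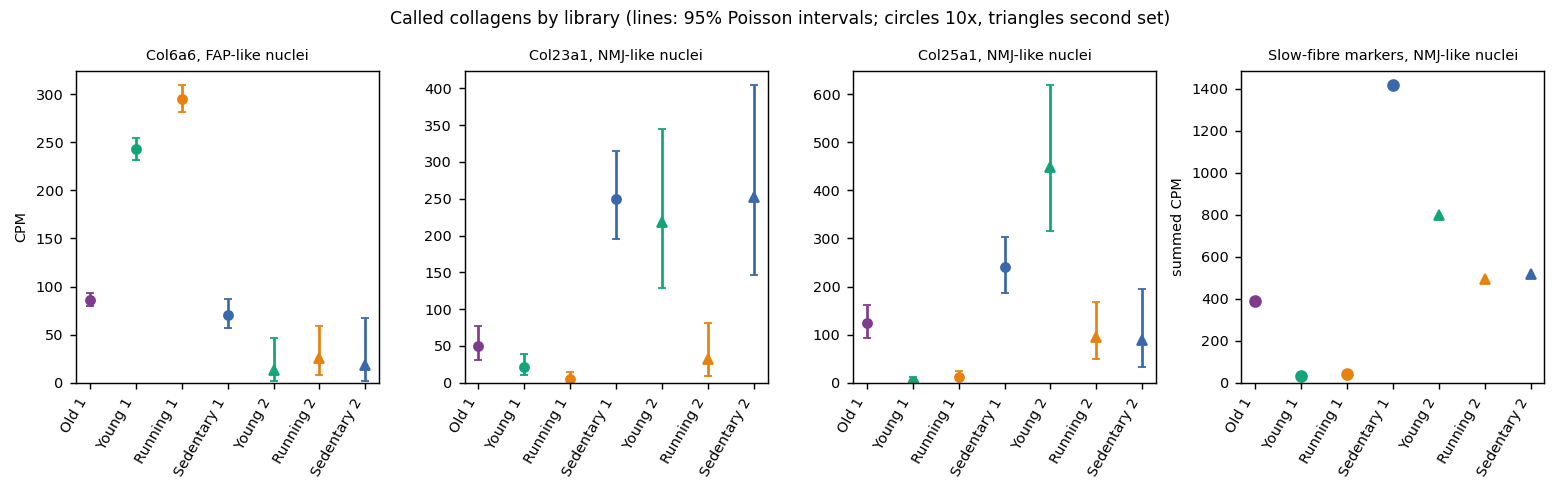
Level in CPM by library of the 3 collagen chain genes called for Running against Sedentary, Col6a6 in FAP-like nuclei and Col23a1 and Col25a1 in nuclei like those of the neuromuscular junction, with 95% Poisson intervals as lines, and the summed CPM of slow fibre markers in the junction-like nuclei in the last panel. Circles are 10x libraries and triangles the second set. Col6a6 differs between Running (295 CPM) and Sedentary (70.6 CPM) in the 10x set and lies at 25.3 and 18.6 CPM in the second set.

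Genes that act on collagen chains gave no call. The lists held 16 genes of folding and modification (prolyl and lysyl hydroxylases and chaperones), 13 of propeptide processing and cross-linking, 12 of breakdown and its inhibitors, 8 receptors and 9 of the TGF-beta pathway. Over all nuclei 15, 12, 11, 8 and 9 of them passed the filter, and 0 were called or had an unadjusted p under 0.05 in either comparison. Processing and cross-linking genes were above 0 for 11 of 12 in Old against Young (median 0.56) and for 9 of 12 between Running and Sedentary (median 0.53). Folding and modification genes were above 0 for 4 of 15 (median -0.24) and 11 of 15 (median 0.21). Breakdown genes and their inhibitors were above 0 for 8 of 11 (median 0.43) and 7 of 11 (median 0.06). Receptors were above 0 for 5 of 8 in each comparison, with medians of 0.41 and 0.09. TGF-beta pathway genes were above 0 for 5 of 9 (median 0.01) and 3 of 9 (median -0.15). The medians of all genes in the same fits were 0.19 and -0.04. Without Old replicate 2 the direction turned for some lists in Old against Young: processing and cross-linking genes were above 0 for 5 of 12 (median -0.21) and folding genes for 11 of 15 (median 0.24). Breakdown genes were then above 0 for 8 of 11 (0.20), receptors for 5 of 8 (0.03) and TGF-beta genes for 5 of 9 (0.37), against a median of -0.07 for all genes, and 0 were called, with 2 at an unadjusted p under 0.05. No gene of these lists was called in any nuclear class tested.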

How the data were processed

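The authors deposited filtered matrices of raw UMI counts per gene and nucleus, 1 for each library. The 10x reads had been counted with Cell Ranger 6.1.2 on mm10, and the study analysed the matrices with Seurat 4.1.1. Whether intronic reads were counted is not given in the sources used here. From the deposited counts, 21207 symbols named in all 8 libraries were kept, and nuclei with over 200 and under 6000 genes and under 6% mitochondrial counts were retained, which left 64803 of 65280 nuclei. The fits omit 12 mitochondrial genes and 85 of ribosomal proteins. Gene coordinates are those of GENCODE vM21 (GRCm38), where 20782 symbols (98.0%) were found.

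Nuclei were clustered within each library set with scanpy 1.11.5 and leidenalg 0.10.2 on 30 principal components of 2000 variable genes, with 20 neighbours and a resolution of 1.0, without collagen genes, and clusters were named from 18 marker lists. Doublets stayed in, since the Scrublet caller marked 0% to 4.84% of nuclei in the 10x libraries and at most 0.022% in the second set, where it had not worked. The 10x libraries shared 30 to 46 barcodes in pairs, and nuclei of the second set carry running numbers. CPM are counts scaled to a total of 1000000 for a library or class. UMIs were summed per library, or per library and class with at least 20 nuclei, and tested in R 4.3.3 by the quasi-likelihood method of edgeR 4.0.16, with TMM factors, low counts removed by filterByExpr, group and library set as terms, and adjusted p-values (Benjamini-Hochberg) called under 0.05. The fit over all nuclei had 3 residual degrees of freedom and a dispersion of 0.294. Differences within a set compare 1 library with 1 other and carry no test. Other settings were RLE scaling, no filter, no set term, DESeq2 1.42.0, only the 4 libraries compared, other clusterings, doublets removed and each library left out.

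Genes named were the 3 most counted members of each collagen class, 8 junction collagens, called members or else the 3 with the smallest p, the collagen IV pairs and the 2 leading members of each nuclear class, and junction collagens were matched to other genes by Pearson r. Members and lists were chosen with earlier results of these data known. Replicates were numbered in deposition order and pair nothing.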

Additional observations from a re-analysis of the deposited data

Results flagged for a closer look

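Col2a1, the chain of cartilage collagen, is the 1 collagen symbol of 44 that was left out of the members, because it is not listed in Sedentary replicate 2. It was looked at because it is a signal outside the comparisons, and any count above 3 UMIs is above the limit that a count of 0 allows. It had 17 UMIs in Old and 13 in Young, with 12 in Running and 19 in Sedentary of the 10x set, and 25, 4 and 5 in Old, Young and Running of the second set. Old replicate 2 had the most, although it was among the shallower libraries.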

How the results depend on the processing

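No paired analysis was possible because the labels give no replicate numbers to pair libraries by. The only block was the library set, a term of the main fits. Over all nuclei, Old against Young had 4 genes called with only the 4 libraries and 0 to 8 with 1 library left out. Its difference for Col4a6 ranged from -0.21 to 2.38 and that of the summed share from -0.28 to 1.5. The summed share has no set term, so leaving out 1 library also unbalances the sets, whose shares differ, and its ranges mix the set with the group. For Running against Sedentary over all nuclei the member median was 0.26 with RLE scaling, 0.20 without a filter, 0.20 without the set term, 0.23 in DESeq2, 0.31 with 4 libraries, 0.17 with all deposited nuclei, 0.47 with named nuclei only and -0.15 to 0.60 with 1 library left out. Genes called were 81 with 4 libraries (2 members) and 0 to 418 with 1 left out (0 to 1 members), and the summed share ranged from -0.13 to 1.15.

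In FAP-like nuclei Running against Sedentary had 0 genes called without the set term, 0 in DESeq2 and 9 at resolution 0.5, each with 0 members, and 0 to 62 genes with 0 to 4 members with 1 library left out. In the neuromuscular class genes called were 0 without the set term, 2 in DESeq2, 1 at resolution 0.5 and 0 with collagens kept in the clustering, with 0, 1, 1 and 0 members, and 0 to 104 genes with 0 to 2 members when 1 library was left out, where Col25a1 ranged from -5.48 to 0.84. At resolution 0.5 the median 10x levels of that class were 1321 CPM for Col4a3, 1923 for Col19a1 and 370 for Col13a1, from 174 nuclei in place of 569.

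In the myotendinous class Old against Young had 2 genes called without a filter and 0 to 50 with 1 library left out, with Col24a1 at -0.10 with collagens kept and -0.01 to 0.81 with 1 left out, and Col4a2 at -0.65 to 1.94. Running against Sedentary had 3 without a filter, 2 with collagens kept and 0 to 43 with 1 left out, with Col4a2 at -0.17 to 1.43. In type IIa/IIx-like nuclei Old against Young had 75 genes without a filter, 20 in DESeq2, 1 each with RLE, with doublets removed, at resolution 0.5 and with collagens kept, and 0 to 27 with 1 left out. Running against Sedentary had 37 without a filter and 0 to 51 with 1 left out, with Col25a1 at -3.26 to 1.20. In type IIb-like nuclei Old against Young had 0 without the set term, 10 in DESeq2 and 0 to 318 with 1 left out, with Col24a1 at -1.42 to 0.02 and Col6a3 at -8.78 to 3.14, the lowest of them with Old left with 37 nuclei. Running against Sedentary had 20 with RLE, 0 without the set term, 0 in DESeq2, 11 with collagens kept and 0 to 105 with 1 left out, with Col25a1 at -1.70 to 0.20. Where a group was left with 1 library, it is assumed to vary like the others. The cause of these changes was not tested. The second set limits depth: its FAP-like and junction-like nuclei hold few UMIs of any collagen.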
